A study of Mus musculus with 3 samples.

Results

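The proteasome subunit genes are the 48 genes of 31053 in the gene lists of the 3 libraries whose symbol is Psma, Psmb, Psmc, Psmd, Psme, Psmf or Psmg followed by a number, pseudogenes left out. The rule used names only and no measured value. 2 further symbols, Psme2b and Psmc3ip, carry letters after the number and lay outside it. The proteasome is the protease of the cytosol and nucleus that degrades ubiquitin-tagged proteins. Its barrel-shaped core is built of alpha and beta subunits, of which 3 beta subunits cut peptide bonds, and it is opened by a regulatory particle of ATPase and non-ATPase subunits or by activators such as PA28. In lymphocytes and after interferon exposure, the 3 constitutive catalytic subunits can be replaced by the immunoproteasome subunits, which change the peptides that are left for loading onto MHC class I.

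UMI counts from droplet-based 3' single-cell RNA sequencing were compared in 3 libraries of mouse P14 cells, CD8 T cells whose transgenic receptor sees GP33-41, a peptide of LCMV (lymphocytic choriomeningitis virus), on H-2Db. The donors carried a TCF-1-GFP reporter. For the tumour-draining lymph node (TdLN) and blood (PBMC) libraries, naive donor cells that were CD44- and GFP+ went into C57BL/6 recipients on day 8 after engraftment of B16.Gp, a B16.F10 melanoma line that expresses the LCMV glycoprotein. TdLN and PBMC cells were sorted on day 16 for CD8, CD45.1 and CD44, and memory cells on day 200 after acute LCMV infection as CD8 T cells that had CD62L, CD127, CD44 and CD45.1 and lacked KLRG1. The labels give the strain as C57BL/6 and the genotype as WT for all groups. They give neither the tissue of the memory cells nor the number of mice behind a library. A library of tumour-infiltrating cells named in the study design was not analysed here. With 1 library in each group, variation between animals is unknown and no test was made. Tissue, day, infection or tumour, sort gate and library preparation cannot be told apart.

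Cells needed 500 or more genes and no more than 10% mitochondrial counts, which left 6265 TdLN, 5652 PBMC and 7003 memory cells with 69537836, 48987260 and 70116366 UMIs. Levels are CPM, the summed UMIs of a gene divided by all UMIs of the kept cells and multiplied by 1000000. Values in parentheses after a level, ratio or share are 95% intervals that cover counting error only. All 6 CD8 T cell markers (Cd3d, Cd3e, Cd3g, Cd8a, Cd8b1 and Trac) were above 20 CPM in each library. Markers of other cells were not equal between the libraries. The 7 B cell markers summed to 292 CPM in TdLN, 101 CPM in PBMC and 119 CPM in memory, most of it Ighm, and 5 of the 7 had UMIs in PBMC against 7 of 7 in the other libraries. The 8 macrophage, monocyte or dendritic markers summed to 289.8 CPM in TdLN, 109 CPM in PBMC and 104 CPM in memory. Between 6 and 15 cell barcodes were shared by any pair of libraries. A lower level in a library can come from fewer cells that express a gene or from less RNA per cell, which summed counts do not separate.

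The 48 genes together took 0.609% of all UMIs in TdLN cells, 0.559% in PBMC cells and 0.4997% in memory cells. Between TdLN and memory, 45 members reached 20 CPM in the higher library. Of these, 42 had a ratio above 1 and 3 below it, and of all genes 68.2% were above 1. The members' median log2 ratio was 0.34, against 0.17 over all 4647 genes that passed the same minimum. Members were counted as higher when the ratio was 25% or more above 1 and as lower when it was 20% or more below 1, the same distance on a log scale. By that rule 24 of the 45 members were higher in TdLN, where 32.2% of all genes were, and none was lower, where 11.1% of all genes were. At 1.5-fold the count was 5 of 45 higher, against 12.7% of all genes, which is near that background, and none lower, against 5.23%. Both counts were higher under a stricter cell filter (1000 or more genes, no more than 5% mitochondrial counts). It kept unequal parts of the libraries, 2274 TdLN, 4140 PBMC and 4024 memory cells. There 35 of 45 members were higher by 25% or more (35.4% of all genes) and 17 of 45 by 1.5-fold (15.1% of all genes). With TMM scaling, which puts the all-gene median at 0.00, 14 members were higher by 25% or more and 18.5% of all genes were, with 19.3% of all genes lower. Without the cells that carried 3 or more UMIs of cell cycle genes the count was also 14 (26.0% of all genes), and it was 22 without the cells that carried specific markers of other cell types (30.2% of all genes).

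Between PBMC and memory, 43 members were compared, with a median log2 ratio of 0.16 against 0.05 over 4384 genes. Of the 43, 10 were higher by 25% or more in PBMC (14.7% of all genes) and none was lower (10.7% of all genes). None reached 1.5-fold either way, as 4.47% of all genes did upward and 3.63% downward. The count was 4 without the cells that carried 6 or more UMIs of effector genes, where 8.92% of all genes were higher. Between TdLN and PBMC, 13 of 45 members were higher in TdLN by 25% or more, where 27.6% of all genes were, and none was lower, where 10.6% of all genes were. Their median log2 ratio was 0.18 against 0.12 over 4606 genes. The direction of this median depended on the setting. It was -0.02 with equal weight per cell and -0.09 without the cells with 2 or more UMIs of any list of non-CD8 T markers, where 13 of 44 members had ratios above 1 and 5 were higher and 5 lower by the rule. The count of higher members was 5 with TMM scaling, where 16.0% of all genes were higher, with 2 members lower, where 18.9% of all genes were. It was 3 without the cell cycle cells, where 23.4% of all genes were higher. The 3 comparisons share libraries and are not independent of each other.

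**Figure D1:**
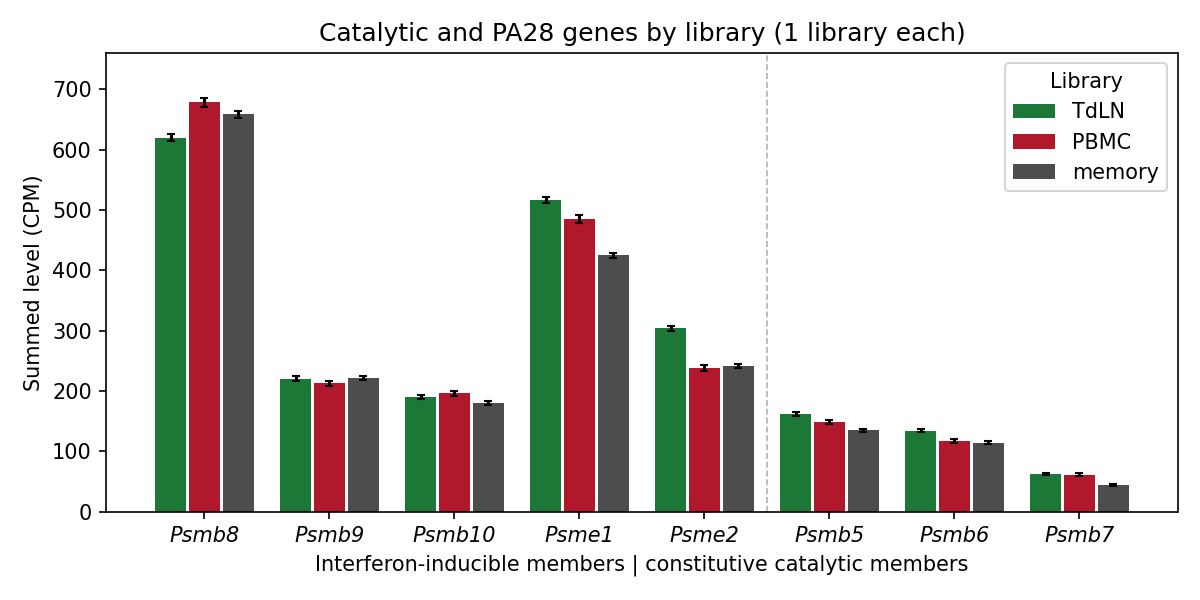
Summed levels (CPM) of the 3 immunoproteasome, 2 PA28 and 3 constitutive catalytic genes, as bars from 0 for the TdLN, PBMC and memory libraries in turn, with error bars that are 95% counting intervals. The 3 bars of Psmb9 stand at nearly the same height, between 213 and 222 CPM, whereas those of Psmb7 stand at 63.1 and 61.3 CPM in TdLN and PBMC and at 44.9 CPM in memory.

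The catalytic subunits come in pairs, an immunoproteasome subunit that takes the place of a constitutive one. Psmb8 replaces Psmb5, which carries the chymotrypsin-like activity. Psmb9 replaces Psmb6, which carries the caspase-like activity, and Psmb10 replaces Psmb7, which carries the trypsin-like activity. Scaled by library totals, the immunoproteasome members differed little between the libraries, with ratios from 0.914 to 1.09, whereas the constitutive members were lowest in memory. They were highest in TdLN, but that order was not kept in every setting. Their median log2 ratio of TdLN over PBMC, 0.13, was -0.01 with TMM and with median-of-ratios scaling, -0.03 without the cell cycle cells and also without the 5% of cells with most UMIs, -0.10 with equal weight per cell and -0.20 without the cells with any non-CD8 T markers. Their medians of TdLN and of PBMC over memory were above 0 in all 15 settings. The immunoproteasome median of TdLN over memory was -0.00, against 0.17 over all genes. It ranged from -0.17 to 0.04 over the settings and was -0.16 with TMM scaling. In PBMC over memory the immunoproteasome median ranged from -0.04 to 0.14, and in TdLN over PBMC from -0.24 to -0.00.

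Psmb8 (chromosome 17, 34197721 to 34201454, GRCm38) had 619.9 CPM (614–625.8) in TdLN, 678 CPM (671–686) in PBMC and 658 CPM (652–664) in memory. TdLN was lowest and its interval lay clear of the others, with 0.942 (0.929–0.954) times the memory level. Psmb9 (chromosome 17, 34181987 to 34187764) had 221 CPM (217–224) in TdLN, 213 CPM (209–217) in PBMC and 222 CPM (218–225) in memory. The intervals of TdLN and memory overlapped, and the TdLN ratio to memory was 0.997 (0.975–1.02). Psmb10 (chromosome 8, 105935735 to 105938444) had 191 CPM (188–194) in TdLN, 196 CPM (193–200.4) in PBMC and 180.2 CPM (177–183) in memory. Its ratio to memory was 1.06 (1.03–1.08) in TdLN and 1.09 (1.06–1.12) in PBMC, and the TdLN ratio falls below 1 when TMM scaling is used.

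Psmb5 (chromosome 14, 54614119 to 54618022) had 163 CPM (160–166) in TdLN, 149 CPM (146–152) in PBMC and 135 CPM (132–138) in memory. The 3 intervals did not overlap, and TdLN was 1.20-fold (1.17–1.24) and PBMC 1.10-fold (1.07–1.14) the memory level. Psmb6 (chromosome 11, 70525367 to 70527858) had 134 CPM (132–137) in TdLN, 118 CPM (115–121) in PBMC and 115 CPM (112–117) in memory. PBMC and memory overlapped, and TdLN was 1.17-fold (1.14–1.21) the memory level. Psmb7 (chromosome 2, 38588036 to 38644087) had 63.1 CPM (61.3–65) in TdLN, 61.3 CPM (59.1–63.6) in PBMC and 44.9 CPM (43.3–46.4) in memory. It was the constitutive member that stood furthest apart, at 1.41-fold (1.34–1.47) in TdLN and 1.37-fold (1.30–1.44) in PBMC over memory. Summed over the constitutive genes, TdLN was 1.22-fold and PBMC 1.11-fold the memory level, against 0.973-fold and 1.03-fold for the immunoproteasome genes. In both comparisons with memory, Psmb7 was the 1 constitutive member of 3 that was higher by 25% or more, and no immunoproteasome member of 3 was. Of all genes, 32.2% were that much higher in TdLN and 14.7% in PBMC. Groups of 3 genes are too small to set against these shares.

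The share of immunoproteasome UMIs within the 6 catalytic genes does not depend on how the libraries are scaled. It was 74.1% (73.9–74.4) in TdLN, 76.8% (76.5–77.2) in PBMC and 78.3% (78.0–78.5) in memory. The intervals did not overlap, and memory was highest. The same order held in each pair. Psmb8 made up 79.2% of Psmb8 and Psmb5 UMIs in TdLN, 82.0% in PBMC and 83.0% in memory. Psmb9 made up 62.2% of Psmb9 and Psmb6 UMIs in TdLN, 64.4% in PBMC and 65.9% in memory. Psmb10 made up 75.1% (74.5–75.8) of Psmb10 and Psmb7 UMIs in TdLN, 76.2% (75.5–76.9) in PBMC and 80.1% (79.4–80.7) in memory. In that pair the TdLN and PBMC intervals overlapped, and in the other pairs no intervals did. These shares compare libraries only, since UMIs of different genes need not be captured alike. The order TdLN, PBMC, memory was the same under the main setting and all 9 alternatives run. The TdLN share ranged from 72.2% to 75.8% over them, the PBMC share from 75.9% to 77.7% and the memory share from 78.1% to 78.3%.

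**Figure D2:**
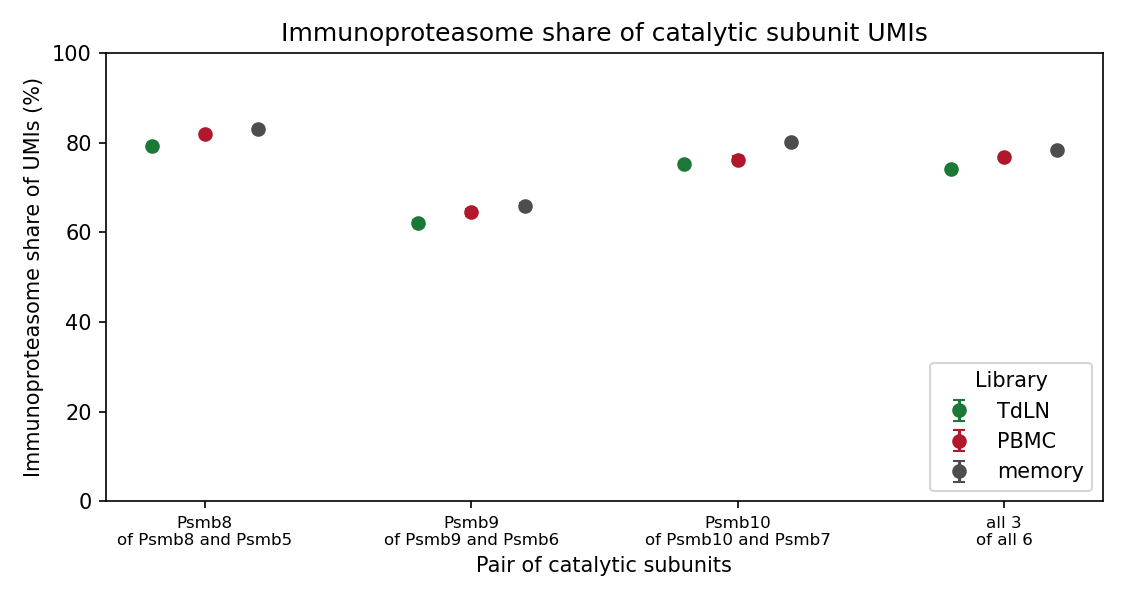
Percent of catalytic UMIs that came from the immunoproteasome gene, for each pair and for all 6 genes, in the TdLN, PBMC and memory libraries, with 95% counting intervals. In each set of points TdLN is lowest and memory highest, with 74.1%, 76.8% and 78.3% over all 6 genes.

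Promoter sequences are shown for Psmb8 and Psme1, which are induced by interferon, and for the constitutive genes Psmb5 and Psmb6. These groups were chosen after the values were seen, and the genes within them because their windows hold a match. Of the other immunoproteasome and PA28 genes, Psmb9, Psmb10 and Psme2 had windows with no match to either interferon motif. RefSeq windows of 250 bases before to 50 bases after the gene start (GRCm38.p6) were found for 40 of the 48 members. The Psmb8 and Psme1 windows lie wholly inside the GENCODE coordinates of these genes. Their RefSeq starts are thus downstream of the GENCODE starts. Psma8, Psmb1, Psmb2, Psmb7, Psmc3, Psmd3, Psmd7 and Psmg2 had no entry. The 4 windows below are given 5′ to 3′ on the strand of the gene, and capitals mark the match to a searched motif: chr17:34197945-34198244 on the plus strand, chr14:55578244-55578543 on the plus strand, chr14:54617946-54618245 on the minus strand and chr11:70525107-70525406 on the plus strand.
Psmb8: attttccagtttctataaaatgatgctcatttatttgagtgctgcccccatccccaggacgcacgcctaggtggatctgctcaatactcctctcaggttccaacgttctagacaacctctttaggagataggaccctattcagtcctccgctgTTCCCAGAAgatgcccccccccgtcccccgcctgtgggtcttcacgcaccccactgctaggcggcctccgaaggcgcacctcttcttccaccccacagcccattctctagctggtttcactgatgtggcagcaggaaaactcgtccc
Psme1: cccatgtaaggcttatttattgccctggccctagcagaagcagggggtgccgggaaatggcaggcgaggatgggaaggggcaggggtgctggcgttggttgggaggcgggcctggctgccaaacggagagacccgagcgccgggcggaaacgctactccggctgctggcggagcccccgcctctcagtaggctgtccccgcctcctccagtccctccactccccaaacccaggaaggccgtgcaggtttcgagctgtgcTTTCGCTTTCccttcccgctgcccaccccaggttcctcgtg
Psmb5: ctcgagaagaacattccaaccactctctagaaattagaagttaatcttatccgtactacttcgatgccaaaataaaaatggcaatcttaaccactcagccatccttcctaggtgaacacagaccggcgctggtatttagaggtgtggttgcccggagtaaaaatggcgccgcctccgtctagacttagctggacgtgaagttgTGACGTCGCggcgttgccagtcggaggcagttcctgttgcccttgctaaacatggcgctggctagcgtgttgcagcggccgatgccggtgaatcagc
Psmb6: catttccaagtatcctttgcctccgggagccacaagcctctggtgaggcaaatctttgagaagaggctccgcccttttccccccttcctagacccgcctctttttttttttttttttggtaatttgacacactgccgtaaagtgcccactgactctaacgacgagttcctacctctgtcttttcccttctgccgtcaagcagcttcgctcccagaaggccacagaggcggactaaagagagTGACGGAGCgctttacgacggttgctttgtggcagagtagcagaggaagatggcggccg

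The capitals in Psmb8 match TTCNNNGAA, the letters of a gamma interferon activation site. The match begins 97 bases before the RefSeq start. It was present in 7.5% of the 40 members, in Psmb8, Psmd2 and Psmg1, and in 9.55% of all 27025 genes of the table (8.30% of its 32851 windows). The capitals in Psme1 match, on the opposite strand, a pair of GAAA copies with 2 bases of any kind between them, the letters of an interferon-stimulated response element, which IRF proteins bind. That motif was present in 12.5% of the members (Psmb3, Psmd4, Psmd9, Psme1 and Psmg4) and in 3.99% of all genes (3.44% of windows). Its match in Psme1 begins after the RefSeq start. The capitals in Psmb5 and Psmb6 match TGACNNNGC, the letters of an antioxidant response element, bound by NFE2L1 and NFE2L2 with small MAF partners. The match begins 47 bases before the start in Psmb5 and 9 bases before it in Psmb6. It was present in 15% of the members (Psmb5, Psmb6, Psmc6, Psmd12, Psmd9 and Psme4) and in 13.99% of all genes (12.4% of windows). The CCAAT box, searched as CCAAT, was present in 35% of the members and 41.1% of all genes (37.4% of windows). A gene with several windows was counted once when any of them matched. Each motif was searched on both strands, and the motifs may overlap one another. A match describes the letters of the window and is not a measured binding site.

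The 7 alpha subunits of the core, which form the outer rings and gate the entry, were all higher by 25% or more in TdLN than in memory, where 32.2% of all genes were. Their median log2 ratio was 0.56, and 0.41 with TMM scaling. Over all settings it ranged from 0.30 without the cells with any non-CD8 T markers to 0.65 under the stricter cell filter. A median of 0.30 is short of the 25% rule, so not all 7 passed it in that setting. Psma6 had 123 CPM in TdLN, 92.0 CPM in PBMC and 80.4 CPM in memory, with a TdLN to memory ratio of 1.53 (1.48–1.58). Psma2 and Psma1 followed at 1.48 (1.45–1.51) and 1.47 (1.43–1.52), and Psma3 was the least apart at 1.26 (1.23–1.29). In PBMC over memory the alpha median was 0.22, and 2 of 7 were higher by 25% or more (14.7% of all genes). Psma5, at 109 CPM in TdLN, 110.3 CPM in PBMC and 80.3 CPM in memory, had the highest alpha ratio there, 1.37-fold (1.32–1.43), and its TdLN and PBMC levels overlapped.

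The 4 non-catalytic beta subunits, which complete the inner rings, ranged from 0.07 to 0.85 in log2 ratio of TdLN over memory. Psmb2 had 165 CPM in TdLN, 122 CPM in PBMC and 91.8 CPM in memory. It had the highest TdLN to memory ratio of all members, 1.80 (1.74–1.85), and its PBMC to memory ratio was 1.33 (1.29–1.38). Psmb4 was at 1.47 (1.43–1.52) in TdLN and 1.290 (1.251–1.330) in PBMC over memory. Psmb1, at 372 CPM in TdLN, 392 CPM in PBMC and 354 CPM in memory, had a ratio near 1, at 1.05 (1.03–1.07) in TdLN over memory. Its ratio of TdLN over PBMC was 0.949 (0.931–0.967).

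**Figure D3:**
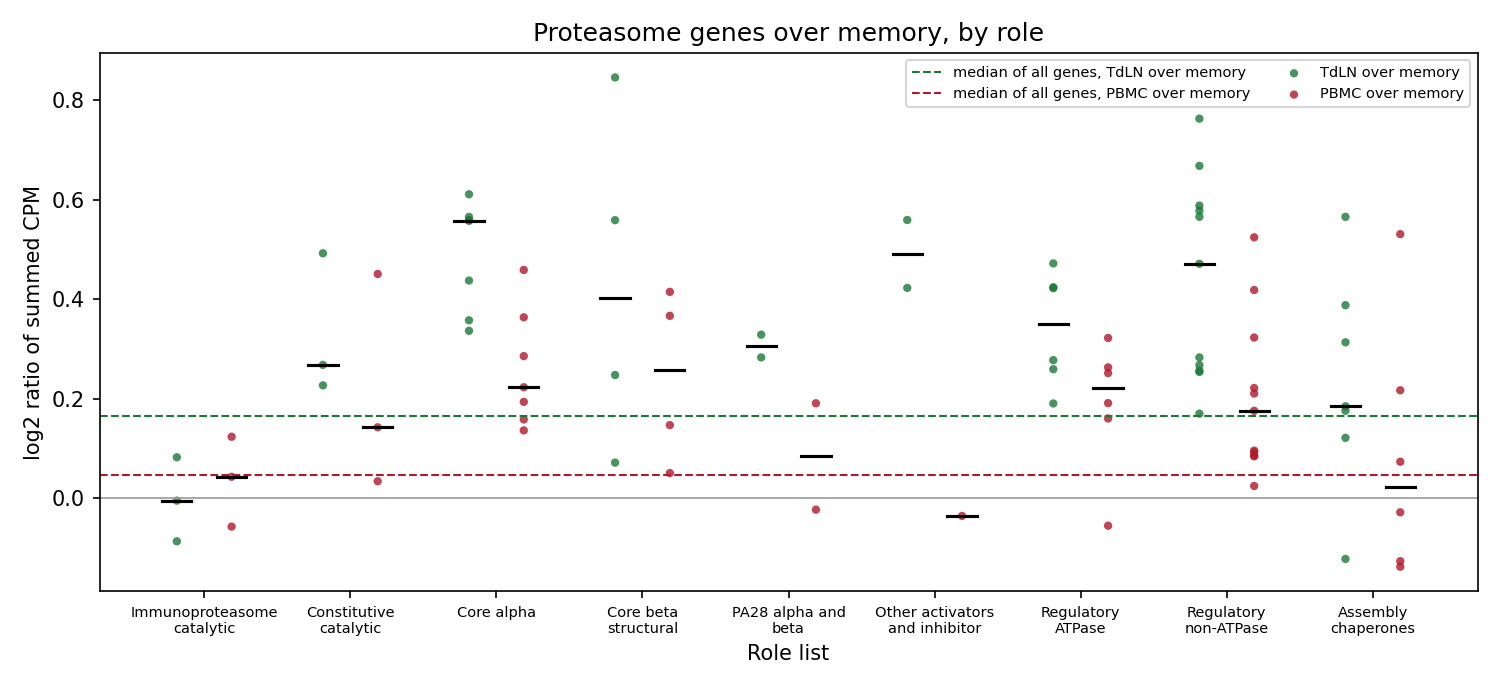
Log2 ratios of summed CPM over memory, by role, for TdLN (green) and PBMC (red). Each point is a member that reached 20 CPM in its higher library, short black lines are medians of a role, dashed lines are the medians over all genes and the grey line marks no difference. In TdLN over memory the 7 alpha subunits lie between 0.34 and 0.61, while the 3 immunoproteasome subunits lie between -0.09 and 0.08.

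Psme1 and Psme2 encode PA28 alpha and beta, the interferon-inducible ring that opens the core and is often found with the immunoproteasome. Psme1 (chromosome 14, 55578123 to 55581529) had 517 CPM (511–522) in TdLN, 485 CPM (479–491) in PBMC and 425 CPM (419.8–429) in memory. The intervals did not overlap, and the ratio to memory was 1.22 (1.20–1.24) in TdLN and 1.14 (1.12–1.16) in PBMC. Psme2 (chromosome 14, 55587441 to 55591113) had 304 CPM (300.0–308) in TdLN, 238 CPM (234–243) in PBMC and 242 CPM (238–246) in memory. TdLN stood alone with 1.26-fold (1.23–1.28) the memory level, and the intervals of PBMC and memory overlapped. Psme2b, a gene outside the rule whose symbol marks it as a Psme2 copy, had 16.0 CPM in TdLN, 12.6 CPM in PBMC and 16.4 CPM in memory. How reads that fit both were assigned is not given in the sources used here. The PA28 median log2 ratio of TdLN over memory was 0.31, against 0.27 for the constitutive and -0.00 for the immunoproteasome genes.

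Of the other activators, Psme3, which encodes the nuclear PA28 gamma, had 37.2 CPM in TdLN, 24.6 CPM in PBMC and 25.2 CPM in memory. It had the highest TdLN to PBMC ratio of the members, 1.51 (1.41–1.62), the single member past 1.5-fold in that comparison, where 10.4% of all genes were and 4.17% were lower by as much. Psmf1, which encodes the inhibitor PI31, had 21.6 CPM in TdLN, 16.8 CPM in PBMC and 16.1 CPM in memory, at 1.34-fold (1.24–1.45) in TdLN over memory. Psme4, which encodes the activator PA200, stayed under 20 CPM with 14.3, 13.3 and 13.8 CPM in TdLN, PBMC and memory, and its intervals overlapped throughout.

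The regulatory particle has 6 ATPase subunits, which unfold substrates, and 11 non-ATPase subunits in this list. All 6 ATPase genes had ratios above 1 in TdLN over memory, as 68.2% of all genes did. Their median log2 ratio was 0.35, and 3 of 6 were higher by 25% or more (32.2% of all genes). Psmc1 had 45.4 CPM in TdLN, 31.5 CPM in PBMC and 32.7 CPM in memory. Its TdLN ratio was 1.39 (1.31–1.47) to memory and 1.44 (1.36–1.53) to PBMC, while its PBMC to memory ratio was 0.962 (0.902–1.03). Psmc5 was 1.34-fold (1.29–1.397) in TdLN and 1.2505-fold (1.20–1.31) in PBMC over memory. Psmc2 had the same level in TdLN and PBMC within counting error, with 71.8 and 71.9 CPM against 62.9 CPM in memory.

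All 11 non-ATPase genes had ratios above 1 in TdLN over memory, as 68.2% of all genes did. Their median log2 ratio was 0.47, and 6 of 11 were higher by 25% or more (32.2% of all genes). The scaffold genes Psmd1 and Psmd2, whose large proteins dock ubiquitin receptors and shuttle factors, were among the highest. Psmd1 had 39.6 CPM in TdLN, 29.2 CPM in PBMC and 23.3 CPM in memory, with 1.70-fold (1.60–1.81) in TdLN over memory. Psmd2 had 67.0 CPM in TdLN, 47.3 CPM in PBMC and 44.6 CPM in memory, with 1.504-fold (1.44–1.57). Psmd3, a lid subunit, had 55.2 CPM in TdLN, 37.1 CPM in PBMC and 34.7 CPM in memory, with 1.59-fold (1.51–1.67). TdLN stood apart from both other libraries for Psmd2 and Psmd3, whose PBMC to memory ratios were 1.06 and 1.07.

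Other non-ATPase genes stood apart in blood as well. Psmd8, a lid subunit, had 135 CPM in TdLN, 130.4 CPM in PBMC and 90.7 CPM in memory, with 1.49-fold (1.45–1.54) in TdLN and 1.44-fold (1.39–1.49) in PBMC over memory. Psmd4, a ubiquitin receptor, had 112 CPM in TdLN, 133 CPM in PBMC and 99.6 CPM in memory. PBMC was highest, at 1.34-fold (1.29–1.38) over memory, and TdLN over PBMC was 0.842 (0.815–0.870), the lowest of the members. Psmd14, the deubiquitinase of the lid, was 1.39-fold (1.33–1.45) in TdLN and 1.13-fold (1.08–1.19) in PBMC over memory.

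The 7 assembly chaperones, which help build core and regulatory particle and leave before they act, had ratios on both sides of 1 in each comparison. Their median log2 ratio was 0.19 in TdLN over memory, near the all-gene median, with 2 of 7 higher by 25% or more, near the 32.2% of all genes, and in PBMC over memory it was 0.02 but -0.04 with TMM scaling. Psmd9 had 39.2 CPM in TdLN, 38.2 CPM in PBMC and 26.5 CPM in memory, and led the PBMC to memory comparison at 1.45-fold (1.36–1.54). Psmg1 had 28.1 CPM in TdLN, 19.6 CPM in PBMC and 21.4 CPM in memory, and Psmg2 had 27.4 CPM in TdLN, 20.01 CPM in PBMC and 22.0 CPM in memory. Both had PBMC to memory ratios below 1, 0.916 (0.844–0.994) for Psmg1 and 0.909 (0.838–0.986) for Psmg2. Psmg4, at 66.7 CPM in TdLN, 76.4 CPM in PBMC and 72.6 CPM in memory, had the lowest TdLN to memory ratio of all members, 0.919 (0.883–0.957).

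The tissue-restricted core members were at the floor. Psmb11, the catalytic subunit of the thymus cortex, and Psma8, the alpha subunit of the testis, each had 2 UMIs in TdLN and 0 in PBMC and memory. A count of 0 allows up to 0.0612 CPM in PBMC and 0.0428 CPM in memory (3 counts), and 3 counts are 0.0431 CPM in TdLN.

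Genes that work with the proteasome but carry other names were taken from 4 lists. Of 10 partner genes compared between TdLN and memory, 5 were higher by 25% or more (32.2% of all genes) and none lower by that distance (11.1% of all genes), with a median log2 ratio of 0.32. Adrm1, a ubiquitin receptor of the regulatory particle, had 49.2 CPM in TdLN, 41.4 CPM in PBMC and 31.6 CPM in memory, and was the partner past 1.5-fold in TdLN over memory, at 1.55 (1.47–1.64). Among the regulators of proteasome genes, Nfe2l1, the factor that raises proteasome genes when proteasome activity falls short, had 18.7 CPM in TdLN, 21.8 CPM in PBMC and 24.5 CPM in memory, a TdLN to memory ratio of 0.762 (0.709–0.820). Irf1 and Nlrc5, regulators of immunoproteasome and class I genes, were at 1.11 (1.07–1.15) and 0.991 (0.935–1.05).

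In the ubiquitin and delivery list, 6 of 12 genes passed the 25% rule upward in TdLN over memory (32.2% of all genes) and 1 was lower (11.1% of all genes), with a median log2 ratio of 0.30. In PBMC over memory 3 of 11 genes of this list were higher by 25% or more (14.7% of all genes), and Rad23b, a shuttle factor, was at 0.823 (0.769–0.881). In the class I peptide loading list, 4 of 10 genes were higher by 25% or more in TdLN than in memory and none was lower, near the shares of all genes (32.2% and 11.1%). Tapbp, which encodes the loading chaperone tapasin, had 156 CPM in TdLN, 90.2 CPM in PBMC and 95.1 CPM in memory, a TdLN to memory ratio of 1.64 (1.59–1.69). Tap1, which encodes a chain of the peptide transporter and lies beside Psmb9, was at 1.46 (1.41–1.51). H2-D1, a class I heavy chain, was lowest at 0.836 (0.830–0.843). In PBMC over memory no gene of the list was 25% or more higher (14.7% of all genes).

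The interferon list of 20 genes, which holds no proteasome gene, stood further apart between the libraries than the immunoproteasome genes did. Of 16 of its genes compared in TdLN over memory, 12 were at least 1.5-fold higher (12.7% of all genes) and none lower (5.23% of all genes), with a median log2 ratio of 1.01. In PBMC over memory the median over 15 genes was 0.65. The immunoproteasome medians in the same comparisons were -0.00 and 0.04.

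Within each library, cells were thinned to 3000 UMIs and ranged by their UMIs of the interferon list. Cells with 6 or more such UMIs were 41.8% of the thinned cells in TdLN, 33.6% in PBMC and 7.27% in memory. The contrast of these cells with those at 2 or fewer was chosen after the values were seen. In every library the immunoproteasome share was higher in the cells with 6 or more interferon UMIs. It was 77.5% (76.7–78.2) against 72.7% (71.5–73.9) in TdLN, 77.8% (77.0–78.7) against 74.9% (73.8–76.0) in PBMC and 81.6% (79.9–83.1) against 78.3% (77.6–79.0) in memory. The intervals of the cells with many and with few interferon UMIs did not overlap in any library. The interval of memory cells with 2 or fewer interferon UMIs overlapped those of TdLN and PBMC cells with 6 or more. With cells thinned to 5000 UMIs the gap within memory was smaller, 79.4% (78.7–80.2) against 77.8% (77.1–78.6). The interval of memory cells with 2 or fewer then lay above that of TdLN cells with 6 or more. The cut-offs were kept and so took in other cells, with 1598 memory cells at 6 or more against 501 at 3000 UMIs.

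Summed, the immunoproteasome genes were 1.24-fold in TdLN, 1.19-fold in PBMC and 1.21-fold in memory in the cells with 6 or more interferon UMIs, against 0.964-fold, 1.01-fold and 0.990-fold for the constitutive genes. Psmb8 had 656 CPM against 543 CPM in TdLN, a ratio of 1.21 (1.15–1.27), with 1.18 (1.12–1.23) in PBMC and 1.14 (1.07–1.21) in memory. Psmb9 was at 1.397 (1.28–1.52) in TdLN, 1.20 (1.10–1.31) in PBMC and 1.22 (1.09–1.353) in memory. Psmb10 was at 1.19 (1.09–1.30) in TdLN, 1.26 (1.15–1.38) in PBMC and 1.48 (1.32–1.65) in memory. All 9 intervals lay above 1. Psmb5, in contrast, was at 0.963 (0.874–1.06) in TdLN, 1.07 (0.969–1.18) in PBMC and 0.999 (0.856–1.16) in memory, each interval including 1.

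The PA28 genes had like ratios in these cells. Psme1 was at 1.21 (1.15–1.28) in TdLN, 1.28 (1.21–1.36) in PBMC and 1.22 (1.13–1.31) in memory. Psme2 was at 1.20 (1.12–1.29) in TdLN, 1.245 (1.15–1.349) in PBMC and 1.15 (1.03–1.27) in memory. Over the whole family the members' median log2 ratio was 0.06 in TdLN, -0.01 in PBMC and -0.00 in memory, and the alpha medians were 0.06, 0.02 and 0.01. By the 25% rule, 2 of 44 members were higher in TdLN (Psmb9 and Psmf1, 9.85% of all genes), 2 of 43 in PBMC (Psmb10 and Psme1, 4.67% of all genes) and 2 of 43 in memory (Psmb10 and Psmd12, 10.6% of all genes). None was lower, where 3.52%, 13.6% and 4.57% of all genes were. Depth differed between the cell ranges in PBMC, where cells with 6 or more interferon UMIs had a median of 9627.5 UMIs before thinning against 6048 in those with 2 or fewer, and its part in the PBMC values was not tested. In TdLN the medians were 9840 and 9749.

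**Figure D4:**
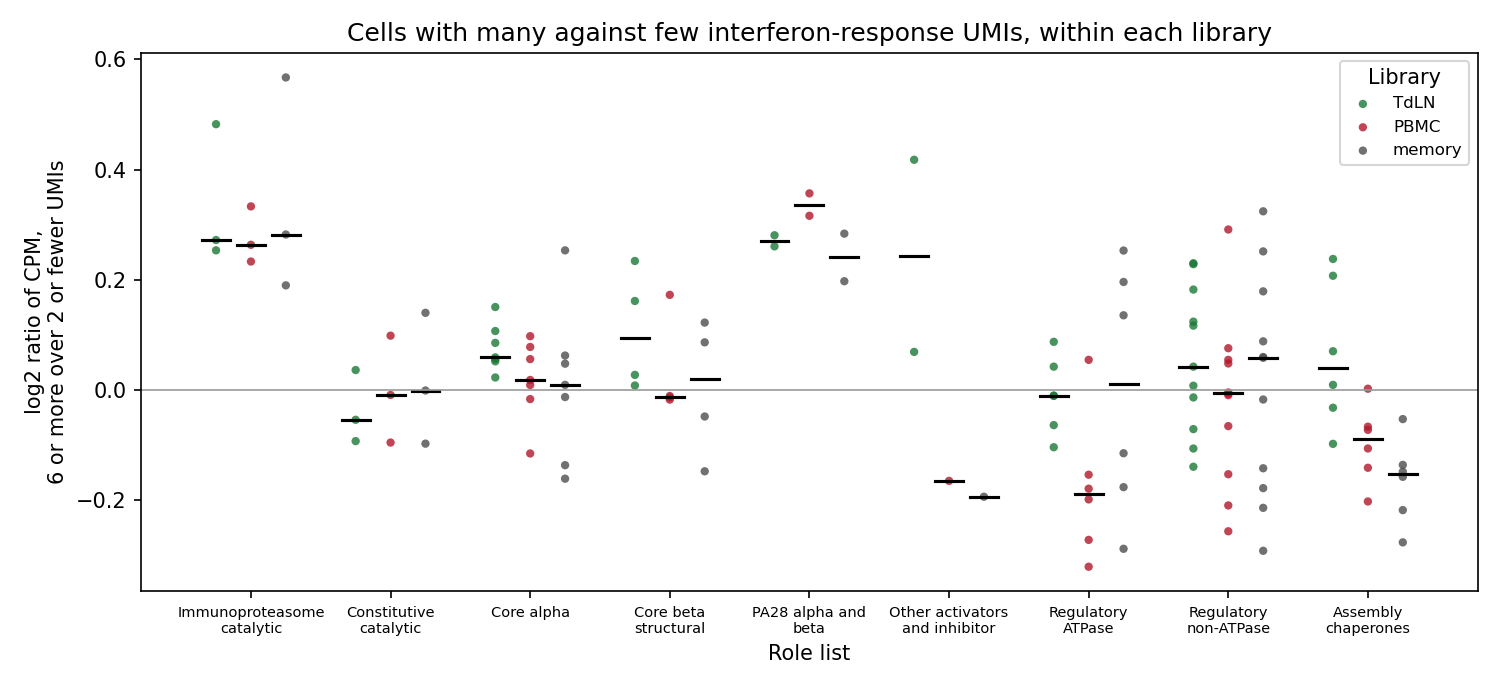
Log2 ratios of CPM in cells with 6 or more over cells with 2 or fewer interferon UMIs, by role, within the TdLN, PBMC and memory libraries. Each point is a member with at least 20 CPM in the higher range of cells, and short black lines are medians. The immunoproteasome medians lie at 0.27, 0.26 and 0.28 and the PA28 medians at 0.27, 0.34 and 0.24, while those of the alpha subunits lie between 0.01 and 0.06.

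Cell cycle genes gave another pattern. In TdLN, 276 cells had 6 or more UMIs of the cycling list and 5741 had 2 or fewer. Of 45 members, 39 were higher by 25% or more in the cycling cells, where 42.9% of all genes were, and 1 was lower, where 21.9% of all genes were. The members' median log2 ratio was 0.73 against 0.21 over all genes. Medians were 0.83 for the ATPase, 0.80 for the non-ATPase, 0.77 for the alpha and 0.77 for the constitutive catalytic genes, against 0.37 for the immunoproteasome and 0.13 for PA28 alpha and beta. Psmc1 had 105 CPM in cycling cells and 38.7 CPM in those with 2 or fewer, a ratio of 2.72 (2.15–3.40). Psmb7 was at 2.16 (1.73–2.67), whereas its partner Psmb10 was at 1.04 (0.887–1.22) and Psme1 at 0.994 (0.900–1.10). Psmb9 stood apart from the other immunoproteasome genes with 388 CPM in cycling cells and 200.1 CPM in the others, a ratio of 1.94 (1.72–2.17). The immunoproteasome share was 72.0% (69.7–74.2) in cycling cells and 76.1% (75.5–76.6) in the others. Cycling cells had a median of 27562 UMIs before thinning against 9579, and the part of depth in these ratios was not tested. In PBMC 29 and in memory 12 cells had 6 or more cycling UMIs, with shares of 71.6% (64.9–77.6) and 83.3% (72.1–91.4), too few for ratios by gene.

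Effector genes such as Gzma, Gzmb and Prf1 divided the PBMC cells into 1962 with 6 or more UMIs of the effector list and 3054 with 2 or fewer, which are ranges of a score and not cell types. The median log2 ratio of the members was 0.44, the same as over all genes, and 32 of 43 were higher by 25% or more where 63% of all genes were. The summed ratios of the roles differed. The constitutive genes summed to 1.38-fold, the ATPase genes to 1.496-fold and the immunoproteasome genes to 1.08-fold, and PA28 alpha and beta to 0.815-fold. Psme1 had 381 CPM in the cells with 6 or more and 513 CPM in those with 2 or fewer, a ratio of 0.742 (0.706–0.781), and was the single member lower by 20% or more, where 8.31% of all genes were. The immunoproteasome share was 73.8% (72.9–74.7) against 78.3% (77.6–79.0), where the memory library as a whole had 78.3%. Effector cells had a median of 5083 UMIs before thinning against 11621.5, and the part of depth in these ratios was not tested. The memory library, whose sort left out KLRG1+ cells, held 69 cells with 6 or more effector UMIs, with a share of 74.7% (69.7–79.3) against 78.3% in the 6655 memory cells with 2 or fewer. There 28 of 46 members were higher by 25% or more, where 61.6% of all genes were, and 3 were lower, where 12.2% were.

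**Figure D5:**
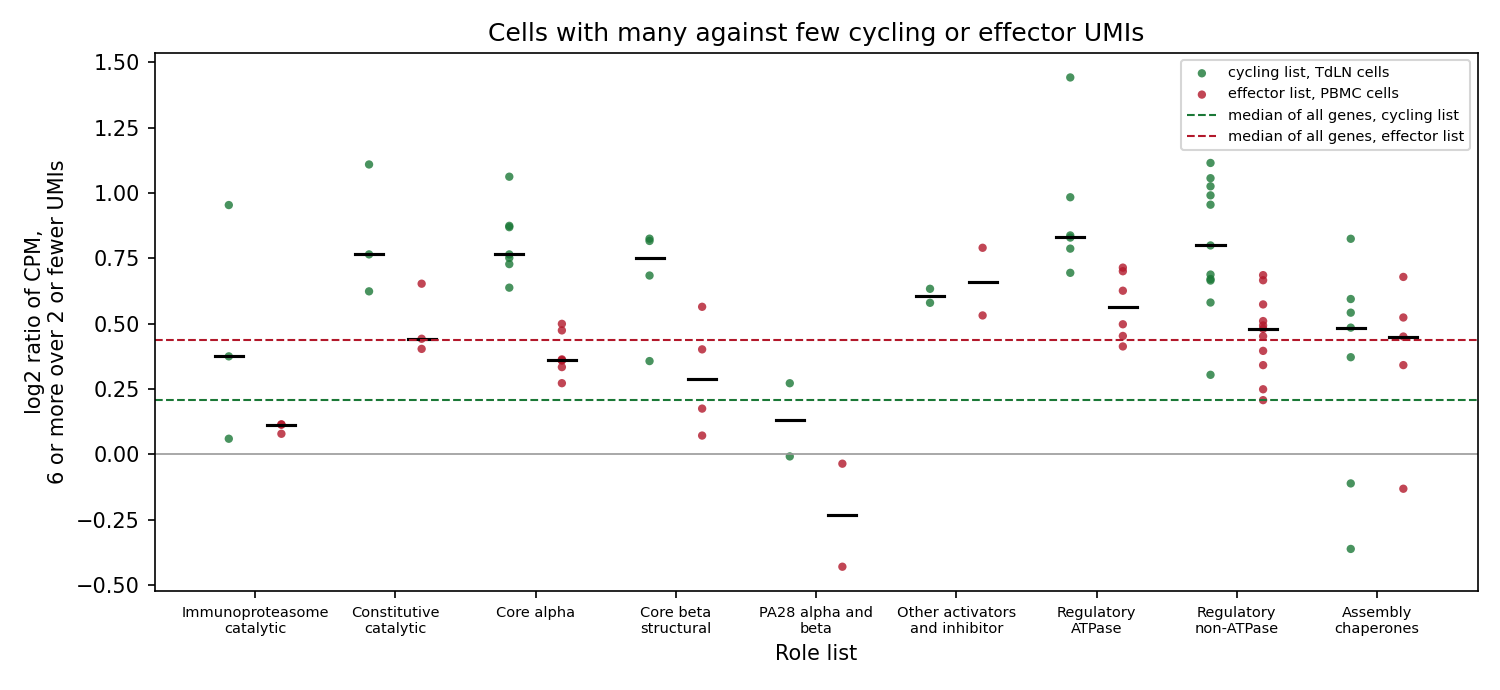
Log2 ratios of CPM by role in TdLN cells with 6 or more over 2 or fewer cycling UMIs (green) and in PBMC cells with 6 or more over 2 or fewer effector UMIs (red). Each point is a member, short black lines are medians of a role and dashed lines the medians over all genes. In cycling cells the constitutive, alpha and regulatory medians lie between 0.77 and 0.83 and the PA28 median at 0.13, and in effector cells Psme1 lies lowest at -0.43.

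Genes of recent T cell activation (Nr4a1, Egr1, Egr2, Cd69, Fos, Dusp1, Myc and Irf4) split the TdLN cells into 586 with 6 or more UMIs of that list and 3671 with 2 or fewer. The members' median log2 ratio was -0.06 against 0.03 over all genes, with 2 of 44 members higher by 25% or more (13% of all genes) and 2 lower (5.67% of all genes). The immunoproteasome share was 75.5% (73.7–77.3) in the cells with 6 or more and 75.7% (75.05–76.4) in those with 2 or fewer, and the intervals overlapped. Median depth before thinning was 9189.5 UMIs against 9947.

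After thinning to 3000 UMIs, Psmb8 was seen in 83.0% (82.1–84.0) of the TdLN cells, 86.3% (85.4–87.2) of the PBMC cells and 84.8% (84.0–85.7) of the memory cells, and without thinning in 97.8%, 97.3% and 98.5%. Psmb7 was seen in 15.5% (14.6–16.4) of the TdLN cells, 18.2% (17.2–19.3) of the PBMC cells and 13.1% (12.3–13.95) of the memory cells, and without thinning in 43.3%, 40.6% and 36.5%. For Psmb7 the order of TdLN and PBMC goes against the summed levels. After thinning the same held for Psmb5, seen in 35.6% of the TdLN cells and 38.1% of the PBMC cells. It also held for Psmb6, with 30.4% and 32.1%, where the intervals overlapped. No order is read from these shares of the constitutive genes. Psme1 was seen in 76.8% (75.7–77.9) of the TdLN cells, 73.0% (71.8–74.1) of the PBMC cells and 71.2% (70.1–72.3) of the memory cells. Thinning left out 121, 145 and 112 cells with fewer UMIs. Proteasome genes are used by every cell type, so no cell type gives a background from free RNA for these shares.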

How the data were processed

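The authors deposited raw UMI counts of each gene in each cell barcode, as whole numbers, for 3 libraries. They were made with Cell Ranger 3.1.0 on mm10, per the submitters' processing notes. How multi-mapped reads were treated is not given in the sources used here. Counts of kept cells were summed per library and divided by their total (CPM). The Poisson interval of a level, the conditional binomial interval of a ratio and the Clopper-Pearson interval of a share are exact (scipy 1.17.1). They cover counting error only. Of these, only the ratio interval was tested on simulated counts, drawn from the Poisson model that it assumes. With 1 library per group no p-value is given. Compared genes had 20 CPM or more in the library where they were higher, and ratios 25% or more above 1, 20% or more below 1, or 1.5-fold apart were counted. TMM factors came from edgeR 4.0.16 and were used as an alternative scaling. For ranges of cells, each cell was thinned to 3000 UMIs with a fixed seed. Doublets were not called, and an alternative left out the 5% of cells with most UMIs. Coordinates are from GENCODE (GRCm38). The members and lists were chosen with earlier results of these data known. Genes named are the catalytic and PA28 genes, the 5 highest and 5 lowest members per comparison, partners and regulators at least 1.5-fold apart and the extremes of the ubiquitin and class I lists. Other genes named were chosen after their values were seen. Some genes of the lists are not reported here.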

Additional observations from a re-analysis of the deposited data

How the results depend on the processing

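No paired analysis was possible because each group has 1 library and its number is only a name, and no replicate could be left out. The order of the immunoproteasome share (TdLN, PBMC, memory, low to high) was the same in all 10 settings. The immunoproteasome median log2 ratio lay below the constitutive one in 15 of 15 settings for TdLN over memory and for PBMC over memory, and in 14 of 15 for TdLN over PBMC. The members' median lay above the all-gene median in 15, 15 and 11 of 15 settings. Among the members followed singly, no called member changed sign. Other called members were not followed singly, so whether any of them changed sign was not tested. The members' median of TdLN over PBMC was below 0 in 2 settings, equal weight per cell (-0.02) and the wide marker filter (-0.09). Pooled over the members followed singly, all comparisons and all alternatives, 374 ratios stayed within the main counting interval and 284 moved beyond it. The counts of members higher by 25% or more depended more on the setting, and the cause was not tested.

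For TdLN over memory (24, with 32.2% of all genes), the count was 35 under the stricter cell filter (35.4%), 14 with TMM scaling (18.5%), 15 without cells with 2 or more UMIs of any list of non-CD8 T markers (27.3%), 14 without the 5% of cells with most UMIs (26.5%) and 14 without cycling cells (26.0%). At 1.5-fold the count of 5 was 17 under the stricter cell filter and between 1 and 6 in the other settings. That marker filter left 863 TdLN, 2369 PBMC and 2061 memory cells, because Trdc and Ighm were widely seen. A narrower marker filter, added after seeing the data, gave 22. For PBMC over memory (10, with 14.7% of all genes), the count was 6 without ribosomal, mitochondrial and Gm42418 counts in the total (9.45%), 16 with equal weight per cell (24.7%), 19 under the wide marker filter (34.9%) and 4 without effector cells (8.92%), a setting also added later. For TdLN over PBMC (13, with 27.6% of all genes), the count was 5 with TMM scaling (16.0%), 5 with median-of-ratios scaling (16.0%), 7 at a 50 CPM minimum (24.4%), 3 with equal weight per cell (20.3%), 20 under the stricter cell filter (29.3%), 5 under the wide marker filter (18.5%), 2 without the 5% of cells with most UMIs (21.7%) and 3 without cycling cells (23.4%).

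The TdLN immunoproteasome share (74.1%) was 75.5% with equal weight per cell, 72.8% under the stricter cell filter, 75.2% under the wide marker filter, 75.8% without the 5% of cells with most UMIs, 75.7% without cycling cells and 72.2% without cells with 6 or more interferon UMIs. The PBMC share (76.8%) was 76.1% with equal weight per cell, 76.1% under the wide marker filter, 75.9% without the interferon cells and 77.7% without effector cells. Thinned to 5000 UMIs with the cut-offs kept, cells with 6 or more interferon UMIs had shares of 76.4% in TdLN and 79.4% in memory. Those with 2 or fewer had 72.2% in TdLN and 77.8% in memory. More cells passed the upper cut-off at this depth. Psmb8 was then seen in 94.1% of the TdLN cells, 95.8% of the PBMC cells and 96.2% of the memory cells. The number of cells limits some ranges, such as the 12 cycling memory cells.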

Other observations

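Psmc3ip, a recombination cofactor whose symbol resembles that of Psmc3 and which lay outside the rule, had 7.89 CPM in TdLN, 4.47 CPM in PBMC and 3.96 CPM in memory. It stayed under the 20 CPM minimum.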
